A study of Mus musculus with 11 samples.

Results

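The Ly6 genes of mouse chromosome 15 encode small surface proteins of the Ly6 and uPAR domain family, which share a fold of disulphide-linked loops and are mostly held to the outer membrane by a GPI lipid anchor. They serve as markers of blood and epithelial cell subsets, and several of them are known to be induced by interferon. Strains of laboratory mice are known to carry different alleles at this cluster. Here 7 Ly6 genes of the cluster (Ly6m, Ly6c1, Ly6a, Ly6e, Ly6d, Ly6h and Ly6k) were followed in terminal ileum. All probes that carry one of the 7 names were taken. They came to 7 of the 25697 probes on the array and belonged to 6 of the 7 genes, since no probe is named LY6H. The array lists Ly6m under its older RIKEN clone name, and the others as LY6C1, LY6A, LY6E, LY6D and LY6K. The family was chosen on the strain differences of Ly6m and Ly6c1 in the signals of these same arrays. Their strain differences, and those of the other members, are therefore given as descriptions and not as tests.

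Total RNA of terminal ileum from naive SKG mice (8 animals) and naive BALBc mice (3 animals), 8 to 12 weeks old, was measured on Illumina MouseRef-8 bead arrays, 1 for each animal. SKG mice have a BALB/c background and carry a spontaneous point mutation in Zap70, a kinase that relays the T cell receptor signal. The labels give the strain alone, with no further allele and no treatment. The 3 SKG arrays of batch 1 are left out, because their values do not line up with the probe names: the signals had rank correlations of 0.0768 to 0.0966 with the other arrays, against 0.838 to 0.947 among the other 8. The comparison thus rests on SKG replicates 4 to 8, all of batch 3, and on BALBc replicates 1 and 2 of batch 2 and replicate 3 of batch 3. Only BALBc replicate 3 shares a batch with the SKG animals, and the difference between batches cannot be told apart from that between the BALBc animals. A batch is what the sample descriptions call one.

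Between 12445 and 14076 probes per array gave a signal above background (detection p under 0.05). Median raw signals were 98.5 to 105.6 in batch 3, which holds all 5 SKG arrays, and 163.0 and 187.5 on the 2 BALBc arrays of batch 2. The tissue carried Fabp6, the ileal bile acid binding protein, at a high level, with mean log2 values of 13.49 ± 0.11 in the 5 SKG animals and 12.86 ± 0.58 in the 3 BALBc animals (SD). Among the other enterocyte markers with a probe, Apoa1, Anpep, Vil1, Sis and Apoa4 were above background on all 8 arrays. Fabp1, Fabp2 and Slc10a2 were not above background on any array. In whole tissue, fewer cells of a type and less RNA per cell cannot be told apart. The number of arrays limits the precision of every value.

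Of the sequence tables at hand, only that of promoters held a member, and of the 7 it held Ly6c1 alone. The window of the upstream Ly6c1 start (RefSeq, GRCm38.p6, minus strand, chr15:75048788-75049087, 250 bases before to 50 after the start) is shown beside that of Ly6c2 (minus strand, chr15:75111922-75112221), the neighbouring gene that also encodes a Ly6C protein. The files give no probe sequences, so Ly6c1 transcripts could not be separated from those of Ly6c2. The windows lie around the starts, and their likeness does not show which transcripts the probe reads. Capitals mark matches to the 4 motifs searched.
Ly6c1: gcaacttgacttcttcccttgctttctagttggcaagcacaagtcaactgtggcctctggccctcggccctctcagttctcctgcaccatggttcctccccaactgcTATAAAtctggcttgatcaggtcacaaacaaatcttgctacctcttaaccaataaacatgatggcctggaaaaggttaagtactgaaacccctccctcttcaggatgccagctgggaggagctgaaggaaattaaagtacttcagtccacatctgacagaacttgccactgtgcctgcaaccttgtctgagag
Ly6c2: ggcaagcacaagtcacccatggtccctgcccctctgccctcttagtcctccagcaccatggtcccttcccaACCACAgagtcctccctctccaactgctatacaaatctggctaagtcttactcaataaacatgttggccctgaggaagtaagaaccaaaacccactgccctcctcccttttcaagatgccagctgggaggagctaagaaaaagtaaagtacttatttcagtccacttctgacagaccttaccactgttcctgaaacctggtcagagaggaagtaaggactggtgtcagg
In a global alignment 208 of 266 aligned bases (78.2%) were identical, and the longest shared run was gatgccagctgggaggagct. The motifs, read on both strands, were the TATA box core TATAAA, the Runx core TGTGGT, the interferon-stimulated element core (GAAA, any pair of bases, GAAA) and the STAT site core TTCNNNGAA. They were present in 13.6%, 16.7%, 3.45% and 8.33% of all 32544 promoter windows of this length. The Ly6c1 window held 1 TATAAA, from base 108 of its 300, and none of the other 3. The window of the downstream Ly6c1 start (chr15:75048614-75048913), not shown, held none of the 4. The Ly6c2 window held 1 Runx core, written as its reverse complement ACCACA, and none of the other 3. The matches are a description of these letters only.

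The SKG and BALBc ilea differed within the family in both directions. Ly6m was far higher in SKG, Ly6e and Ly6d were somewhat higher, Ly6c1 was lower, and Ly6a lay between the BALBc animals of the different batches. Ly6k was not above background in either strain. In a limma fit with batch as a random block and a threshold of 0.05 on the adjusted p, Ly6m fell on the higher side and Ly6c1 on the lower side, which the choice of the family had fixed. Of all 10414 genes tested by their brightest probe, 0.413% were called higher and 0.24% lower, 0.653% in all. Of all 13775 probes fitted, 0.348% were called higher and 0.261% lower, 0.61% in all. Values of the strains did not overlap for 4 of the 5 members, beside 15.9% of all genes. Because the members were chosen with this contrast known, nothing is read from either count, and where a member passes or misses the threshold is given only to describe how the fit depends on the arrays. The 5 members tested are those with detection on at least 3 of the 8 arrays.

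**Figure D1:**
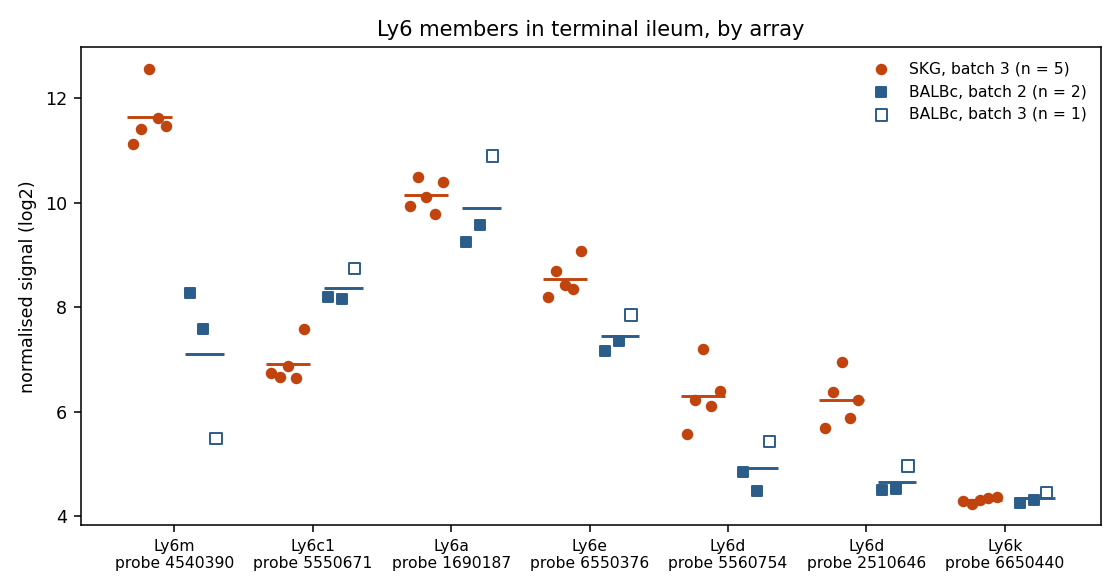
Normalised log2 signal (vertical axis) of each Ly6 probe on each array, with SKG animals as circles, BALBc animals of batch 2 as filled squares and the BALBc animal of batch 3 as an open square, and horizontal lines at the group means. Ly6m lies at 11.12 to 12.56 in SKG and 5.48 to 8.26 in BALBc, Ly6c1 goes the other way, and Ly6k stays at 4.24 to 4.45 on all arrays. Levels of different probes are not comparable.

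Ly6m is a member of the cluster that lies between Ly6d and Ly6e in the gene order. Its raw mean bead signals were 1732.6, 2346.3, 4303.8, 3031.8 and 2504.6 in SKG replicates 4 to 8, against 986.0, 603.6 and 116.7 in BALBc replicates 1 to 3. Every SKG animal lay above every BALBc animal, as in 10.5% of all tested genes after normalisation, although the 2 BALBc arrays of batch 2 were brighter overall. After background correction and quantile normalisation the values were 11.12, 11.40, 12.56, 11.63 and 11.47 on the log2 scale in SKG, against 8.26, 7.58 and 5.48 in BALBc. All 8 values were above background, so the probe measured a level in both strains. The signal of 116.7 in BALBc replicate 3 was close to the median of its array (103.7), so the size of the difference depends on the background floor.

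The fitted Ly6m difference was 5.53 on the log2 scale (SE 0.54), a 46.2-fold excess in SKG and the highest of all 10414 genes tested. The 3 BALBc animals were far from alike: their Ly6m values spanned 2.78 log2 units (6.88-fold), while those of the 5 SKG animals spanned 1.44 (2.71-fold). The BALBc animal of batch 3 had the lowest value, at 5.48, and within that batch the SKG mean exceeded it by 6.16 (71.4-fold). Without this animal, BALBc replicate 3, the fitted difference was 3.72. On all 8 arrays it was 4.25 with no background correction and 4.85 with an offset of 50. In the authors' deposited table of log2 values Ly6m stood at 10.31, 10.80, 11.89, 11.19 and 10.87 in SKG replicates 4 to 8, against −0.36, −0.13 and −0.17 in BALBc replicates 1 to 3. The strains did not overlap there either. How that table was centred is not stated in the sources used, and its 3 BALBc values lay close together where the raw signals did not.

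Each signal is a mean over beads, and the bead numbers and bead SD give its precision on 1 array. Over the member probes and the 8 arrays 25 to 50 beads were read, with a standard error of 2.21% to 6.08% of the signal. For Ly6m the SD between SKG animals was 33.6% of the raw signal (on the natural log scale), 9.0 times the bead error of 3.75%. Between BALBc animals it was 111.8%, 22.2 times the bead error of 5.04%. For Ly6c1, Ly6a and Ly6e the ratio was 5.9, 7.6 and 6.8 in SKG, and 10.1, 3.5 and 9.1 in BALBc. The BALBc ratios include the batch difference in brightness.

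**Figure D2:**
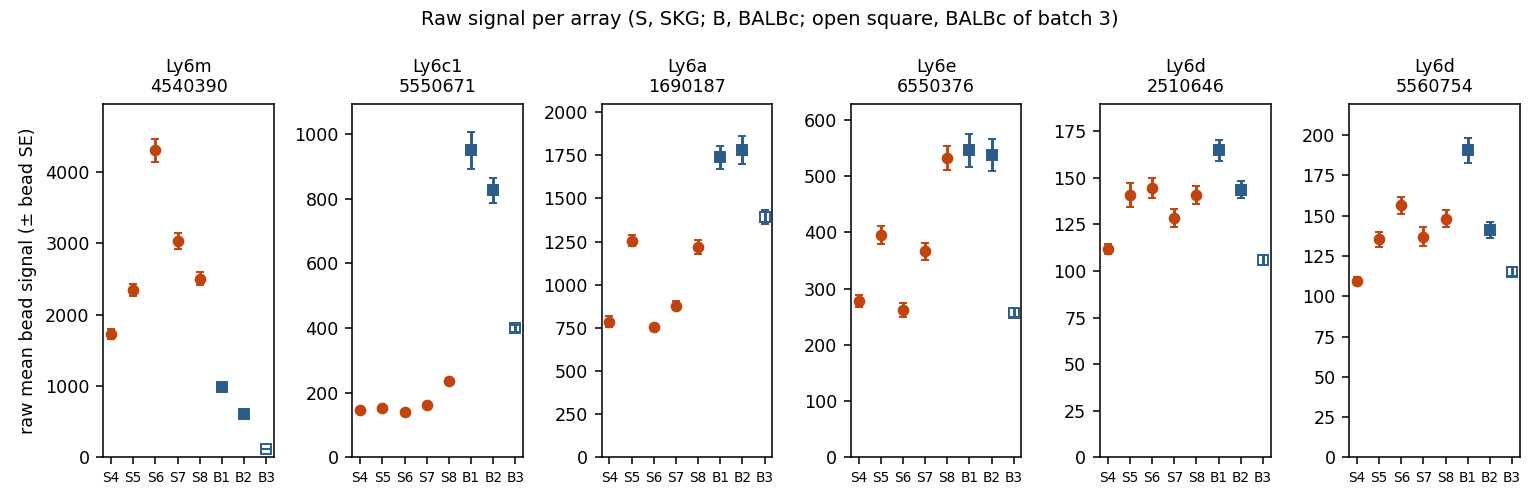
Raw mean bead signal (vertical axis, from 0, with bars of 1 bead SE) of each Ly6 probe that was fitted, by array (horizontal axis), named S4 to S8 for SKG and B1 to B3 for BALBc. Ly6m shows 1732.6 to 4303.8 in SKG and 116.7 to 986.0 in BALBc, while Ly6e and both Ly6d probes overlap between the strains in raw signal.

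Ly6c1 encodes Ly6C, known from monocytes, small vessels and memory CD8 T cells. Its normalised log2 values were 6.74, 6.67, 6.88, 6.64 and 7.58 in SKG replicates 4 to 8, against 8.19, 8.16 and 8.74 in BALBc replicates 1 to 3. The groups did not overlap, as in 5.36% of all tested genes with SKG below BALBc. SKG replicate 8 lay nearest to BALBc. The fitted difference was −1.70 (SE 0.31), 3.24-fold lower in SKG, and within batch 3 it was −1.84. The place of Ly6c1 past the threshold was narrow: it was lost when any one of SKG replicates 4, 5 and 7 or BALBc replicates 1 and 2 was left out (differences of −1.65, −1.63, −1.63, −1.69 and −1.71). It was also lost in batch 3 alone and with no filter on dim probes. Those fits gave −1.84 and −1.60.

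Ly6a encodes Sca-1, an antigen of blood stem cells, vessels and activated lymphocytes. Its values were 9.94, 10.50, 10.11, 9.78 and 10.40 in SKG replicates 4 to 8, against 9.25, 9.58 and 10.89 in BALBc replicates 1 to 3. All 5 SKG values lay above the 2 BALBc animals of batch 2 and below the BALBc animal of batch 3. The plain mean of the SKG animals was 10.15 ± 0.30 and that of the BALBc animals 9.91 ± 0.87 (SD, n = 5 and 3), while the fitted difference, which weighs the batches, was −0.37 (SE 0.35), and within batch 3 it was −0.75. In raw signal all 5 SKG arrays (752.9 to 1254.3) lay below all 3 BALBc arrays (1393.6 to 1779.5). No direction can be given: without BALBc replicate 3 the difference was 0.73 and past the threshold, with array weights it was 0.63 and past it, and with no batch term it was 0.24.

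Ly6e encodes an interferon-induced member found in many tissues. Its values were 8.20, 8.70, 8.42, 8.35 and 9.07 in SKG replicates 4 to 8, against 7.16, 7.35 and 7.85 in BALBc replicates 1 to 3. The groups did not overlap after normalisation, like those of Ly6m. In raw signal they did overlap, at 262.0 to 531.9 in SKG and 257.3 to 545.8 in BALBc. The fitted difference was 0.85 (SE 0.30), or 1.81-fold, and 0.70 within batch 3. Ly6e did not pass the threshold, except without BALBc replicate 3, with no batch term and with array weights (1.30, 1.10 and 1.27).

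Ly6d is known from lymphoid progenitors committed to the B lineage and from stratified epithelium, and it was measured by 2 probes. The brighter gave 5.57, 6.22, 7.21, 6.10 and 6.39 in SKG replicates 4 to 8, against 4.84, 4.48 and 5.42 in BALBc replicates 1 to 3. The other gave 5.69, 6.38, 6.96, 5.88 and 6.22 in SKG, against 4.49, 4.51 and 4.95 in BALBc. Both probes put every SKG animal above every BALBc animal and had SKG replicate 6 highest and replicate 4 lowest. Their fitted differences were 1.07 (SE 0.42) and 1.39 (SE 0.35), and 0.88 and 1.27 within batch 3. Neither passed the threshold, although the brighter did without BALBc replicate 3 and with array weights (1.64 and 1.57). The probes were above background on all 5 SKG arrays but on 2 and 1 of the 3 BALBc arrays, so both entered the fit through SKG, and the sizes depend on the background floor. With no background correction the brighter probe differed by 0.44. In raw signal it overlapped, at 109.4 to 156.3 in SKG and 115.3 to 190.6 in BALBc, where the arrays of batch 2 are brighter overall.

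Ly6k, known from testis, stayed at background level throughout, on all 8 arrays. Its values were 4.24 to 4.37 in SKG and 4.26 to 4.45 in BALBc, and no difference is given. Ly6h, known from brain, was not measured.

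The genes with the most similar pattern over the 8 arrays were looked up for each member by Pearson correlation of the normalised log2 values, and the 8 points share strain and batch. For Ly6m they were Crnkl1 (0.990), Azin1 (0.979), Slc47a1 (0.979), Slc5a4b (0.966) and Vps53 (0.964), of which Slc5a4b was itself past the threshold as higher in SKG (2.42). For Ly6c1 they were Snrpb, Ncdn and Zfp667 (0.979 to 0.960), for Ly6e Serpina10, Pkmyt1 and Cbfa2t2 (0.980 to 0.974), and for Ly6d Flad1, Tia1 and Ovol1 (0.981 to 0.977). For Ly6a they were Apobr, the probe named SAS and Mtx1 (0.986 to 0.981). No member was among the closest genes of another member.

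The differences were then set along the chromosome. Besides the members, 56 genes with a probe lie in the cluster or among the nearest 25 on each side in the RefSeq gene order, and 38 of them were tested. None passed the threshold in limma, against 0.653% of all genes. Their median difference was 0.07, beside 0.01 for all genes, and 22 of the 38 were positive, beside 50.7% of all genes. The smallest p-values were those of Fam83h, a keratin-associated gene (0.77, SE 0.24, adjusted p = 0.193), Sla, a lymphocyte signalling adaptor (−1.19, SE 0.40, adjusted p = 0.225), and Zc3h3, an RNA-binding zinc finger gene (0.83, SE 0.30, adjusted p = 0.262). Inside the cluster the neighbours Ly6i and Ly6f, as well as Gml2 and Cyp11b1, were not above background on any array. Gpihbp1, the carrier of lipoprotein lipase on capillaries and the first gene after the cluster with a probe, differed by −0.07 (SE 0.39). With BALBc replicate 3 left out, so that batch and strain coincide, 18 of the 38 neighbours passed as higher and 2 as lower, beside 22.4% and 15.7% of all genes in that fit. There Fam83h and Zc3h3 passed (1.32 and 1.46), while Sla differed by −0.16. Sla passed without SKG replicate 6 (−1.54).

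**Figure D3:**
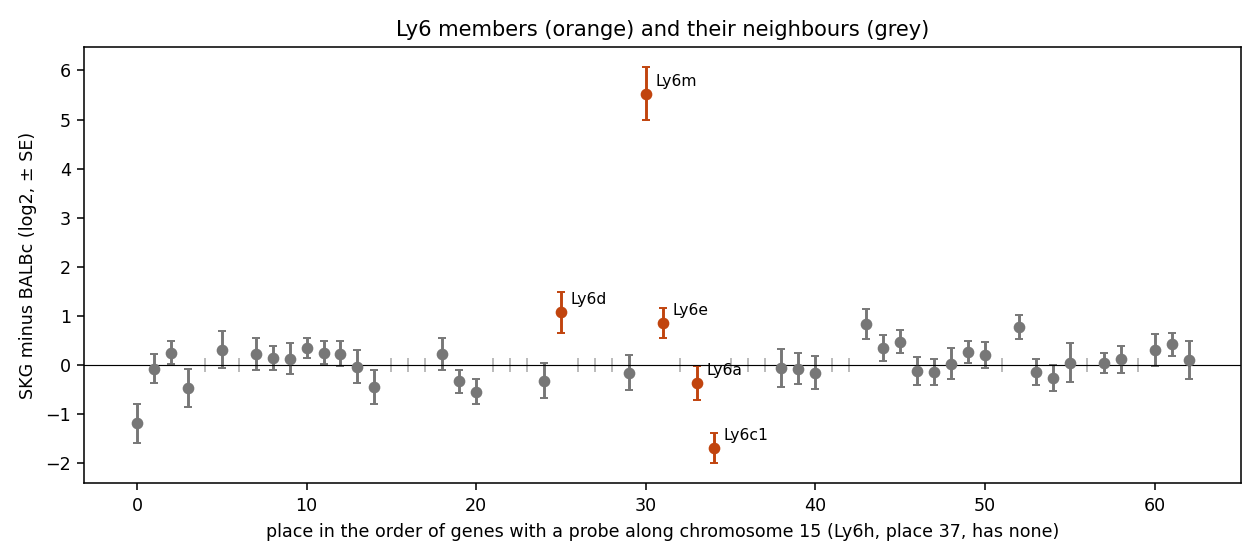
Fitted SKG minus BALBc difference on the log2 scale (vertical axis, bars of 1 SE) of the brightest probe of each gene, in gene order along chromosome 15 (horizontal axis), with Ly6 members in orange, their neighbours in grey, and short ticks for genes not above background on enough arrays. Ly6m stands at 5.53 and Ly6c1 at −1.70, while the neighbours lie between −1.19 and 0.83.

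Genes of the same fold outside the 7 members were examined next. Of 35 listed, 28 had a probe and 12 were tested. Of these, 2 fell and none rose, beside 0.24% and 0.413% of all genes called lower and higher. This list, and the interferon, GPI anchor and cell marker lists below, were chosen with earlier results of these data known. Their counts and adjusted p-values are therefore given as descriptions. The median difference of the 12 was −0.12, beside 0.01 for all genes. The 2 genes that fell, Cd177 and Cd59b, lie on other chromosomes than the cluster.

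Cd59b encodes one of the mouse CD59 proteins, which block the membrane attack complex of complement. Its brighter probe gave 6.68, 6.32, 6.45, 5.96 and 6.39 in SKG replicates 4 to 8, against 8.70, 9.05 and 8.58 in BALBc replicates 1 to 3. The groups did not overlap. It fell by 2.29 on the log2 scale (SE 0.26, limma adjusted p = 0.00272), and by 2.21 within batch 3. Its second probe fell too (−1.58, SE 0.23, adjusted p = 0.011). That probe was above background on 1 of 5 SKG arrays and on all 3 BALBc arrays. Cd59a, the paralogue, averaged 11.43 ± 0.28 for SKG and 11.77 ± 0.58 for BALBc (SD, n = 5 and 3), and its difference of −0.68 (SE 0.32) did not pass (adjusted p = 0.384). How far the Cd59a and Cd59b probes read each other's transcript could not be checked.

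Cd177 encodes a GPI-anchored protein best known from neutrophils. Its brighter probe gave 7.37, 8.12, 7.87, 7.92 and 7.61 in SKG replicates 4 to 8, against 9.89, 9.95 and 10.88 in BALBc replicates 1 to 3. It fell by 2.86 (SE 0.30, adjusted p = 0.00173) and by 3.11 within batch 3, and its second probe fell as well (−1.72, SE 0.27, adjusted p = 0.0184). Cd59b and Cd177 were each past the threshold in all 20 alternatives. Of 7 neutrophil markers with a probe, only Ltf had detection on at least 3 arrays, with means of 4.65 ± 0.37 for SKG and 4.69 ± 0.23 for BALBc (SD, n = 5 and 3). S100a9 and Cxcr2 were not above background on any array. Camp was above background on 2 BALBc arrays and 0 SKG arrays, and Retnlg on 1 and 0. S100a8 and the most often detected Mpo probe were above it on 1 SKG array each and 0 BALBc arrays. The part of neutrophils in the Cd177 values was not tested.

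**Figure D4:**
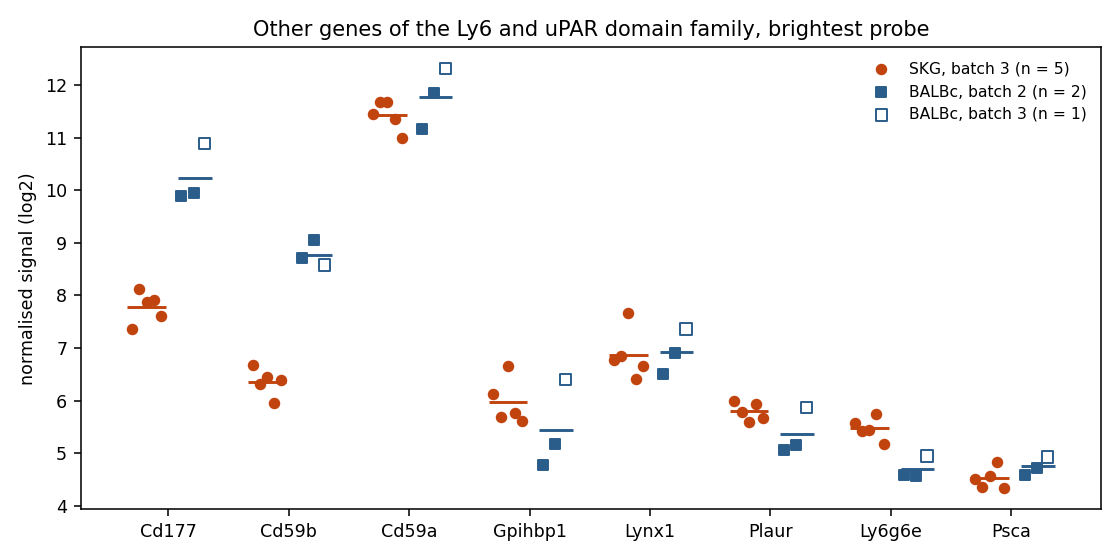
Normalised log2 signal (vertical axis) on each array for 8 other genes of the Ly6 and uPAR domain family by their brightest probe, with SKG animals as circles, BALBc animals of batch 2 as filled squares and the BALBc animal of batch 3 as an open square, and lines at the group means. Cd177 and Cd59b lie lower in all 5 SKG animals, Cd59a overlaps, and Gpihbp1, Lynx1 and Plaur overlap as well.

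The remaining members of that list did not pass, and those named here were picked after their values were seen. Ly6g6e, of the cluster in the major histocompatibility region, had the next smallest p (0.62, SE 0.24, adjusted p = 0.284). Lynx1, a modulator of nicotinic receptors, differed by −0.32 (SE 0.36), Plaur, the urokinase receptor, by 0.13 (SE 0.25), and Psca, a surface antigen of epithelia, by −0.34 (SE 0.23). The other 16 genes with a probe, among them Lypd2, Lypd3 and Slurp1, were not above background on enough arrays to be tested.

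Since several Ly6 genes are induced by interferon, a list of 47 interferon response genes was read from the same fit. Of 39 tested, 2 fell, none rose, and 37 did not pass, beside 0.24% and 0.413% of all genes called lower and higher. The median difference was 0.04, beside 0.01 for all genes. The 2 that fell were Ifi35, an interferon-induced protein gene (5.55 ± 0.39 in SKG, n = 5, and 7.79 ± 0.60 in BALBc, n = 3, SD, difference −2.66, SE 0.34, adjusted p = 0.00532), and Cxcl9, a chemokine induced by interferon gamma. Cxcl9 averaged 6.37 ± 0.11 for SKG and 7.86 ± 0.08 for BALBc (SD, n = 5 and 3), a difference of −1.49 (SE 0.21, adjusted p = 0.01), which did not pass in batch 3 alone or in the authors' deposited table (adjusted p = 0.0559 and 0.0728, in a range of 3.57e-07 to 0.0728). Of the 39, 21 were positive, like Ly6e, and 18 negative. All 5 SKG values lay above BALBc for 5 of the 39 and below for 6, beside 10.5% and 5.36% of all genes. Without BALBc replicate 3 the list had 7 higher and 13 lower, beside 22.4% and 15.7% of all genes in that fit.

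Genes that build and attach the GPI anchor were read in the same way. Of 30 listed, 22 were tested and 1 rose, beside 0.413% of all genes called higher, while 21 did not pass. The 22 had a median difference of 0.15, beside 0.01 for all genes, and 17 of them were positive, beside 50.7% of all genes. All 5 SKG values lay above BALBc for 5 of the 22 and below for 0, beside 10.5% and 5.36% of all genes. The gene that rose was Pigt, a subunit of the transamidase that joins the anchor to proteins, with 10.47, 10.41, 10.38, 10.26 and 10.96 in SKG replicates 4 to 8 and 7.45, 7.87 and 8.56 in BALBc replicates 1 to 3. Its difference was 2.17 (SE 0.30, adjusted p = 0.00818) and 1.94 within batch 3. Gpaa1, another subunit of that enzyme and itself the last of the 25 genes after the cluster, did not pass (0.10, SE 0.38, adjusted p = 0.942). It is named for its place, after its value was seen.

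Markers of cells known to carry Ly6c1 and Ly6a were read beside them. All 11 T cell markers tested had a negative difference (median −1.63), beside 50.7% of all genes with a positive one. Of the 11, 2 passed as lower, beside 0.24% of all genes: Cd6 (−2.80, SE 0.48, limma adjusted p = 0.029) and Cd8b1 (−2.67, SE 0.50, limma adjusted p = 0.0429). Both calls were lost when any one of SKG replicates 4, 5, 7 and 8 or BALBc replicates 1 and 2 was left out, with differences of −2.86 to −2.65 for Cd6 and −2.69 to −2.57 for Cd8b1. Without BALBc replicate 3 they passed at −1.71 and −0.95. These values are of the brightest probe, and a dimmer Cd6 probe also passed on all 8 arrays (−2.59, SE 0.34, limma adjusted p = 0.00614). The summed linear signal of the 11 was 426 to 856 in SKG and 1138 to 2476 in BALBc. Cd8a had no detected signal on the 8 arrays. Of 9 monocyte and macrophage markers 8 were negative and none passed (median −0.73, summed signal 1258 to 1989 in SKG and 1829 to 3019 in BALBc), and Ccr2 was undetected on each of the 8. Of 11 endothelial markers 10 were negative and none passed (median −0.56, summed signal 1435 to 2367 in SKG and 1243 to 3014 in BALBc). Other cell types had negative differences too: with none past the threshold, 8 of 8 markers were negative for smooth muscle (median −0.64), 4 of 5 for plasma cells (−1.19), 5 of 6 for enteric neurons (−0.33) and 4 of 6 for adipose tissue (−0.44). The summed signal of smooth muscle overlapped, at 27808 to 39985 in SKG and 25621 to 51801 in BALBc. So did those of enteric neurons (438 to 696 and 346 to 720) and adipose tissue (2009 to 9126 and 772 to 8363). That of plasma cells did not (3483 to 5278 and 5385 to 7102). A linear sum follows its brightest marker, here Xbp1, whose own values overlapped between the strains (−0.22, SE 0.27). Of the 5 plasma cell markers, 3 had all SKG values below BALBc, and 1, Sdc1, had them all above (0.89, SE 0.28). In the other direction, 5 of 6 enterocyte markers were positive, with none past the threshold. Cela1, the only pancreas marker tested, passed as higher (1.42), beside 0.413% of all genes. The part of any of these cell types in the Ly6c1 and Ly6a values was not tested. For Ly6d, 5 B cell markers were tested and none passed (median −0.44, summed signal 325 to 1152 in SKG and 231 to 1158 in BALBc). Of 9 stratified epithelium markers with a probe, 8 were not detected on 3 arrays, including Krt5 and Trp63, which were above background on none. Krt14 averaged 4.98 ± 0.23 for SKG and 4.43 ± 0.11 for BALBc (SD, n = 5 and 3). Its signal was detected in 4 SKG animals but in 0 BALBc animals. Krt14 thus passed the detection filter through SKG alone. Its BALBc mean is a background level, and the gap between the means depends on that floor.

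Other ways of processing the same arrays changed the sizes, and they are no independent support for a direction that chose the family. The Ly6m difference was 3.72 to 11.21 over 20 alternatives, the highest being that of the authors' deposited table. That of Ly6c1 was −1.87 to −1.17 over 19. Those of Ly6e and Ly6d were 0.64 to 1.30 and 0.44 to 1.64 over 19 each. Ly6a was negative in 16 of 19 and positive in 3 (−0.75 to 0.73).

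**Figure D5:**
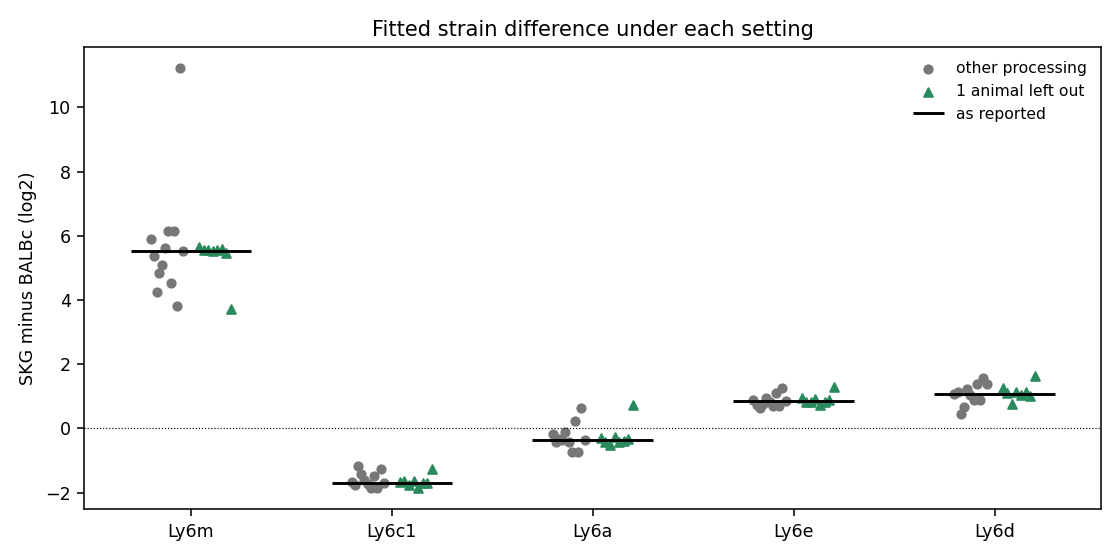
Fitted SKG minus BALBc difference on the log2 scale (vertical axis) of the brightest probe of 5 Ly6 genes, as reported (line), with 1 animal left out (triangles) and under other processing (circles). Ly6m lies above 3.7 in each, Ly6c1 lies below −1.1 in each, and Ly6a falls on both sides of 0.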

How the data were processed

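Intensity values (mean bead signal, with bead SD and bead number) are GenomeStudio 1.9.0 exports that the authors left unnormalised, per the file headers. Detection was deposited as a fraction, 1 minus the detection p. The authors' deposited log2 table (5045 probes, centring not stated) served as an alternative only. Submitters' processing notes name GenomeStudio and limma without roles. Groups, replicates and batches came from the sample descriptions. Signals of 8 arrays were corrected by normexp from detection p (offset 16), quantile normalised and log2 transformed with limma 3.58.1 (R 4.3.3, statmod 1.5.0). The 13775 probes detected (p under 0.05) on 3 or more arrays were fitted, SKG minus BALBc, with batch as a random block (consensus correlation 0.544), two-sided, Benjamini-Hochberg adjusted. The fit was also run on simulated data, with the SKG spread in both strains. That run does not cover probes with a wider BALBc spread, such as Ly6m, and nothing is read from it. A gene was represented by its brightest probe. Of 18138 names, 14309 matched the reference symbols and 2886 an older name. Named genes were all members, each list's called genes (at most 6) or its 3 smallest p-values, and the nearest patterns. Further genes (Cd59a, Gpihbp1, Gpaa1, Lynx1, Plaur, Psca, Ly6g6e and single cell markers) were named after their values were seen. The members and lists were chosen with earlier results of these data known. Alternatives covered scaling, background, filter, batch, array weights, single animals and probe choice. Labels do not say whether animals shared a litter or cage.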

Additional observations from a re-analysis of the deposited data

Results flagged for a closer look

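In 4 of 18 probes checked, 1 of the 5 SKG animals stood far from the other 4, by a gap to the nearest of more than 0.71 of the group's range. Chance flags about 1 in 20 such groups. Of the 18, 3 probes (Fam83h, Sla and Zc3h3) were added to the check after values had been seen, and 2 of the 4 are among them. Ly6c1 stood at 7.58 in SKG replicate 8, with the nearest other at 6.88 (gap 0.753 of the range). The other 3 were in SKG replicate 6: Cd8b1 at 6.42 (nearest 5.33, gap 0.831), Fam83h at 10.66 (nearest 10.39, gap 0.796) and Sla at 8.51 (nearest 7.64, gap 0.741).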

How the results depend on the processing

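Cd177, Cd59b, Ifi35 and Pigt kept their direction and passed under each alternative that measured them. Ly6m, whose difference chose the family, was 3.72 to 5.65 with 1 animal left out. Ly6c1 missed the threshold with no filter (−1.60) and in batch 3 alone (−1.84), and ranged from −1.87 to −1.28 with 1 animal left out. Ly6a turned positive with no batch term (0.24), with array weights (0.63) and without BALBc replicate 3 (−0.52 to 0.73 over single animals left out). Ly6e passed with no batch term (1.10) and array weights (1.27), and Ly6d with array weights (1.57). With 1 animal left out they ranged from 0.73 to 1.30 and from 0.77 to 1.64, and both passed without BALBc replicate 3. Cd6 and Cd8b1 passed in 11 and 9 of 19 alternatives. Cxcl9 was lost in batch 3 alone (−1.49) and in the authors' deposited table (−0.56). With no batch term, 2 members, 2 neighbours, 2 interferon genes and 2 GPI anchor genes were higher and 5 interferon genes lower. With array weights, whose estimation did not converge fully, 4 members, 5 other Ly6 and uPAR genes, 23 neighbours, 14 interferon genes and 13 GPI anchor genes were higher, and 3 neighbours, 15 interferon genes and 1 GPI anchor gene lower. With no filter and in batch 3 alone 0 members were lower, and in batch 3 alone 1 interferon gene was lower. With 1 animal left out, higher calls ranged from 1 to 4 for members, 0 to 3 for other Ly6 and uPAR genes, 0 to 18 for neighbours, 0 to 7 for interferon genes and 1 to 7 for GPI anchor genes, and lower calls from 0 to 1, 2 throughout, 0 to 2, 2 to 13 and 0 to 1. Over all probes, 48 were higher and 36 lower, against 454 and 281 with no batch term, 4838 and 3263 with array weights, 495 and 397 without SKG replicate 6, and 2940 and 2266 without BALBc replicate 3. Without BALBc replicate 3 batch and strain coincide, and no batch correlation was fitted. The 75th percentile, array weights and that omission moved the median of all probes by over 0.1 (to 0.17, 0.14 and 0.14). The cause of these changes was not tested. No paired analysis was possible, because each array came from a different animal and the labels pair no SKG animal with a BALBc animal. Signals near background limit Ly6d and Ly6k, and in BALBc replicate 3 they limit the size of the Ly6m difference.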
